A study of Drosophila melanogaster with 102 samples.

Results

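Mated female Drosophila melanogaster fed a high sugar diet (HSD) or a high fat diet (HFD) were compared with each other, so that the 2 rich diets are set side by side in the animals that ate them. The comparison was defined by the diet label and the generation label. It holds 10 of the 102 libraries of the series, 5 from HSD mothers (s11 to s15) and 5 from HFD mothers (s6 to s10). The 5 libraries of mothers on a control diet (CD, s1 to s5) entered the same fit and are given as levels only. All 15 libraries were made from total RNA of whole females of strain W1118, a white mutant, which spent 7 days on the diet and were mated with CD-fed males. The labels give no age for the mothers. The sources used here give neither the number of flies in a library nor whether the libraries are stranded. Nor do the labels say that libraries came from separate cultures, so a p-value sets the diets against the spread among these libraries, and that spread may be technical. A mean is given with its SD over 5 libraries, and a log2 fold change, HSD minus HFD, with its SE.

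In the fly, serine proteases, amylases and maltases of the midgut break down protein, starch and disaccharides, and the absorbed sugar and fat pass to the fat body, an organ that combines the roles of liver and adipose tissue. The fat body stores fat and glycogen, makes yolk proteins, detoxifying enzymes and immune peptides, and signals the nutritional state to the insulin-producing cells of the brain. Adipokinetic hormone acts on the fat body to release these stores, and the transcription factor Mondo, the fly counterpart of ChREBP, responds to sugar.

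The HSD libraries held 10247670 to 11893261 counts and the HFD libraries 8539974 to 14949468 (two-sided exact permutation test on the totals, p = 0.516). Of 14312 genes deposited, 10243 passed the filter on low counts. All libraries carried female transcripts. The oocyte transcript osk stood at 1088 to 1400 CPM (counts scaled to a common library size) in HSD and 1157 to 1325 CPM in HFD, and none of 23 testis and accessory gland genes passed the filter. Some libraries stood apart in a principal component analysis of log2 CPM. The first component held 23.1% of the variance, with scores of -39.2 in s13 and -21.9 in s12 (both HSD) and -54.8 in s1 (CD), against -8.93 or more in the other 12 libraries. HSD library s15 had the lowest weight among all libraries in limma's sample weighting, 0.334, followed by s1 with 0.344. For each gene list, and for the genes whose difference rests on s12 and s13, values are given with and without these 2 libraries.

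**Figure D1:**
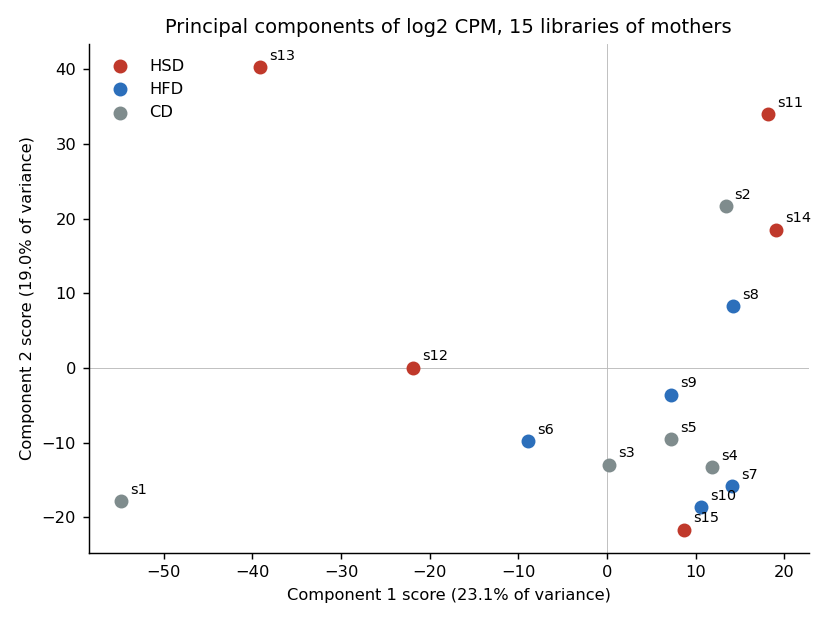
Scores of the 15 libraries of mothers on the first and second principal components of log2 CPM, in units of the component, coloured by diet with the library name beside each point. HSD libraries s12 and s13 and CD library s1 lie at -21.9, -39.2 and -54.8 on the horizontal axis, and HSD library s15 lies beside HFD libraries s7 and s10.

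With edgeR, the main test, no single gene separated HSD mothers from HFD mothers once all genes tested were taken into account. With edgeR's quasi-likelihood test, 0 of 10243 genes (0%) had a Benjamini-Hochberg adjusted p under 0.05, and the smallest adjusted p, 0.609, was shared by 1094 genes. DESeq2 called 1 gene, the gut protease Jon66Ci, and limma-voom with sample weights called 0. At an unadjusted p under 0.05 there were 831 genes (8.11%), 558 of them higher in HSD (5.45%) and 273 lower (2.67%). Without s12 and s13 the share was 3.66%, the base for counts of list members given without these 2 libraries. Every gene named below carries an edgeR adjusted p of 0.609 or more, so the values describe these libraries and are not calls. The HSD and HFD libraries did not overlap in 98 genes (0.957%), 53 higher (0.517%) and 45 lower (0.439%) in HSD. With 5 libraries a diet, some genes fail to overlap without any diet difference, and that share was not estimated. A log2 fold change above 0 was found in 5477 of the 10243 genes (53.5%), the base for counts of higher and lower list members.

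The genes higher in HSD differed by more than the genes lower in HSD. Among the genes at an unadjusted p under 0.05 the median log2 fold change, HSD minus HFD, was 0.64 for the higher genes and -0.20 for the lower genes, beside a median of 0.01 over all genes tested. A log2 fold change of 1 or more was found in 135 higher genes, and of -1 or less in 17 lower genes. The large differences followed particular libraries. In 106 of the 135 genes (78.5%) s12 and s13 were the highest 2 of the 10 libraries, against 8.04% of all genes tested. The 135 were selected as higher in HSD, so HSD libraries rank high in them by construction. All genes tested are therefore not a like base. In 116 of the 135 (85.9%) s1 was the highest CD library, against 30.7% of all genes tested. With s12 and s13 left out, 19 of the 135 kept a log2 fold change of 1 or more, and the median over the 135 was 0.25 in place of 1.43. Part of this fall is built in, because s12 and s13 took part in the selection of the 135.

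Midgut serine proteases were lower in HSD mothers in 21 of 30 members, with a median log2 fold change of -0.23. Of the 30 members, 0 were higher and 4 lower at an unadjusted p under 0.05 (13.3% of the list, against 8.11% of all genes tested). The summed level of the list was 2774.5 to 3944.1 CPM in HSD and 2973.2 to 5077.7 CPM in HFD, so the groups overlapped. The median of the list depends on single HFD libraries. Without s6 it was -0.07, with 14 members positive and 16 negative, and without s9 it was -0.08, with 13 positive. When s12 and s13 were left out it was -0.29, with 23 of 30 negative. Jon66Ci, a chymotrypsin-like Jonah protease of the midgut, stood at 3.24, 13.9, 10.0, 5.25 and 5.53 CPM in the HSD libraries s11 to s15. It stood at 36.3, 44.8, 12, 21 and 32.3 CPM in the HFD libraries s6 to s10, and at 13.9 to 41.2 CPM in CD. The groups touched at a single point, where HSD s12 exceeded HFD s8, and the HSD libraries lay below the CD mean of 29.9 CPM. HSD s12, at 13.907 CPM, also lay just above the lowest CD library, s1, at 13.884 CPM. Jon66Ci averaged 7.58 ± 4.31 CPM in HSD and 29.3 ± 12.9 CPM in HFD (SD, n = 5 each), a log2 fold change of -1.94 ± 0.43 (SE). Its adjusted p was 0.609 with edgeR's quasi-likelihood test and 0.0203 with DESeq2, and ranged from 0.0203 to 0.976 over all alternatives. The fold change was -2.65 without s12 and s13, and between -2.28 and -1.74 with any single library left out.

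Jon66Cii, the neighbouring gene on the opposite strand and a second Jonah protease, showed the same direction at a low level. It was listed at 0, 2.61, 1.30, 0.680 and 0.351 CPM in HSD, against 6.71, 5.84, 1.94, 2.49 and 2.10 CPM in HFD. Only HSD s12 lay above any HFD library, and the log2 fold change was -1.93 ± 0.62 (edgeR adjusted p = 0.609). In the Ensembl BDGP6.54 annotation Jon66Ci lies on chromosome 3L from 8391540 to 8392377 and Jon66Cii from 8392820 to 8393649. Kallisto, named in the submitters' processing notes, divides reads among similar transcripts, so the split between such paralogs is uncertain. Jon65Ai and Jon44E, further Jonah proteases, averaged 47.3 ± 12.2 and 3.93 ± 1.42 CPM in HSD and 75.9 ± 27 and 8.30 ± 4.62 CPM in HFD, with overlapping groups. In whole flies, fewer cells of a type and less RNA per cell cannot be told apart.

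**Figure D2:**
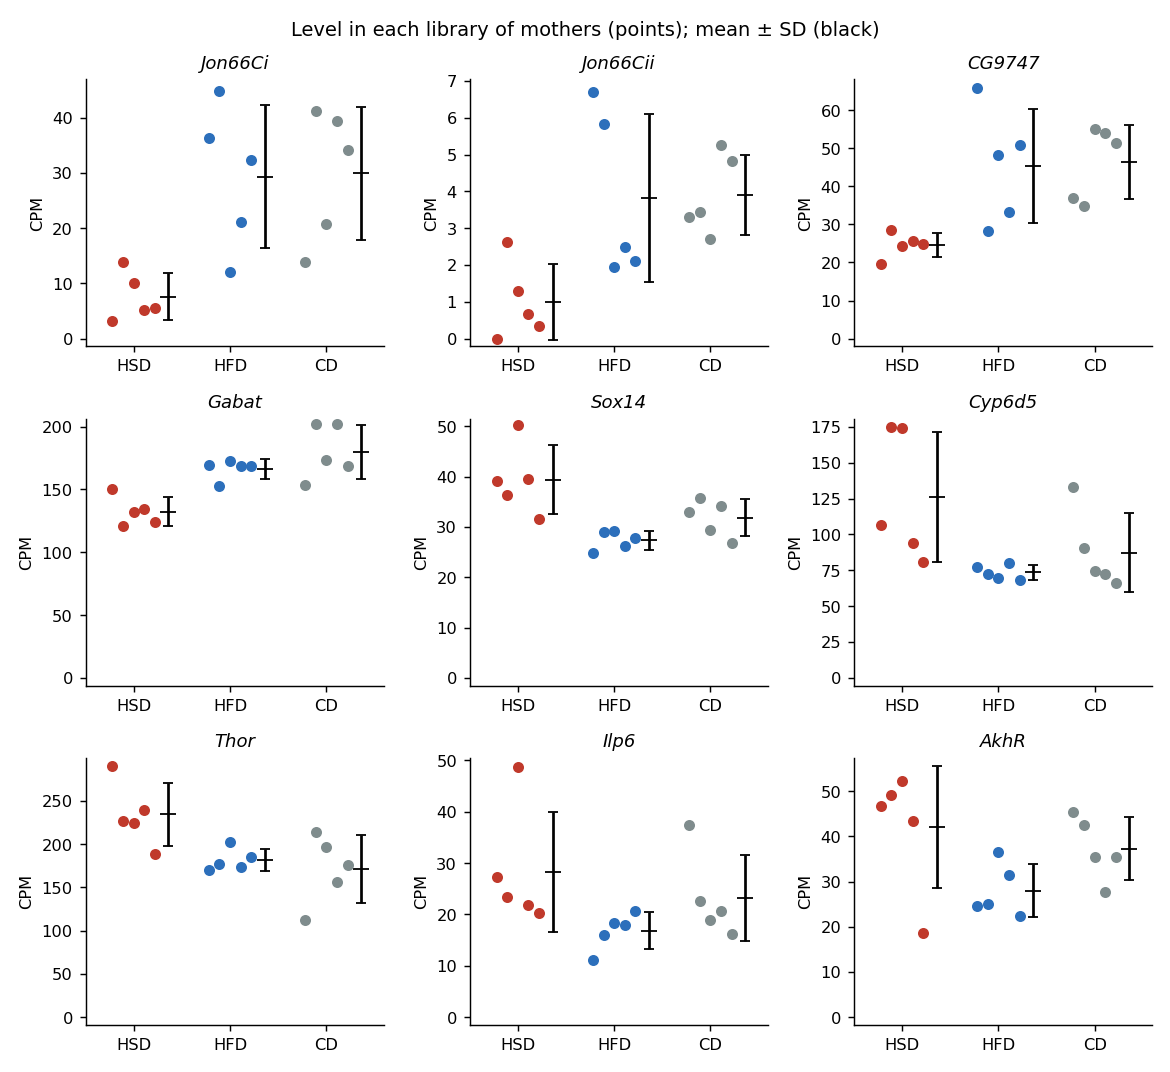
Level of 9 genes in CPM (vertical axis, from 0) in each HSD, HFD and CD library (points, 5 per diet in library order), with the mean and SD beside them in black. Jon66Ci has an HSD mean of 7.58 CPM and an HFD mean of 29.3 CPM, Gabat and Sox14 do not overlap between HSD and HFD, and 1 HSD library, s15 at 18.6 CPM, lies apart from the others for AkhR.

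The genes of smallest p included several that did not overlap between the diets and differed little in size. Gabat, the transaminase that breaks down the neurotransmitter GABA, stood at 150, 121, 132, 135 and 124 CPM in HSD, against 169, 152, 172, 169 and 169 CPM in HFD. All HSD libraries lay below all HFD libraries and below all CD libraries, which held 153 to 202 CPM. The log2 fold change was -0.33 ± 0.08, and -0.30 without s12 and s13. Roe1, the GrpE-type partner of the mitochondrial Hsp70 chaperone, averaged 88.9 ± 5.02 CPM in HSD and 105 ± 5.52 CPM in HFD without overlap (log2 fold change -0.24 ± 0.06).

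Sox14, an ecdysone-responsive transcription factor, was the gene of smallest p. It stood at 39.2, 36.4, 50.3, 39.6 and 31.5 CPM in HSD and at 24.7, 29, 29.1, 26.3 and 27.8 CPM in HFD. The groups did not overlap, the CD libraries at 26.8 to 35.8 CPM overlapped each of them in part, and the log2 fold change was 0.53 ± 0.11 (edgeR adjusted p = 0.609). It was 0.41 without s12 and s13. ppk26, a sodium channel subunit of the nociceptive neurons of the body wall, was low throughout, at 0.527 to 1.42 CPM in HSD and 0.297 to 0.429 CPM in HFD (log2 fold change 1.53 ± 0.37). The HSD value of 0.527 CPM is that of s15, and the other 4 HSD libraries held 1.12 CPM or more. ringer, a microtubule-binding protein of the TPPP family, averaged 29.2 ± 2.47 CPM in HSD and 23.2 ± 2.32 CPM in HFD, and 1 HFD library lay within the HSD range.

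CG9747, an acyl-CoA desaturase, had lower values in HSD. Its levels were 19.7, 28.7, 24.4, 25.5 and 24.9 CPM in HSD, against 65.9, 28.3, 48.2, 33.2 and 51.0 CPM in HFD and 34.8 to 55.1 CPM in CD. The HSD libraries were close together while the HFD libraries spread widely, with HFD s7 inside the HSD range. The log2 fold change was -0.88 ± 0.21, and -0.97 without s12 and s13. CG13947 had the largest difference among non-overlapping lower genes, with 2.63 to 5.83 CPM in HSD, 8.60 to 21.6 CPM in HFD and 9.97 to 81.3 CPM in CD (log2 fold change -1.85 ± 0.53). CG34166, of the non-overlapping higher genes, held 35.9 to 89.7 CPM in HSD and 14.3 to 24.6 CPM in HFD, with log2 fold changes of 1.58 ± 0.48 with all libraries and 1.54 without the 2. P5CDh2, a second gene for pyrroline-5-carboxylate dehydrogenase of proline breakdown, had the largest difference of the kind. It stood at 1.11, 10.2, 6.44, 1.85 and 1.67 CPM in HSD, where s12 and s13 lay above the rest, and at 0.377 to 1.09 CPM in HFD, with a log2 fold change of 2.52 ± 0.73 that was 1.05 without s12 and s13.

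Sugar digestion and transport genes were higher in HSD in 17 of 19 members tested, with a median log2 fold change of 1.06, and 6 were higher and 1 lower at an unadjusted p under 0.05 (36.8%, against 8.11% of all genes tested). Amy-p, an amylase that splits starch, stood at 34.7, 221, 453, 28.8 and 28.4 CPM in HSD and at 70.3, 13.9, 20.4, 56.7 and 14.8 CPM in HFD. HSD s12 and s13 were far above the other 8 libraries, and the other 3 HSD libraries lay inside the HFD range. CD library s1 was likewise high at 280 CPM, against 42.7 to 81.0 CPM in the other CD libraries. The log2 fold change was 2.12 ± 0.86 with all libraries and -0.22 without s12 and s13. The near-identical Amy-d followed it, at 1.93 ± 0.83 and -0.43 without s12 and s13. Mal-B2, a maltase, held 88.1, 190, 272, 81.7 and 84.0 CPM in HSD and 60.3 to 82.5 CPM in HFD, and CD s1 held 168 CPM. Its log2 fold change was 1.06 ± 0.35 with all libraries and 0.29 without s12 and s13. tobi, an alpha-glucosidase known as a target of brain insulin, averaged 62.5 ± 71.9 CPM in HSD and 22 ± 12.5 CPM in HFD, with 190 CPM in s13, and its log2 fold change was 1.5 ± 0.62 with all libraries and 0.23 without s12 and s13. sut1, a sugar transporter, was lower in HSD, at 130 ± 16.4 CPM against 149 ± 10.7 CPM in HFD. Without s12 and s13 the list median was -0.08, with 6 of 19 members positive and 0 higher at an unadjusted p under 0.05.

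Amino acid breakdown genes were higher in HSD in 15 of 18 members (median 0.53), with 7 higher and 1 lower at an unadjusted p under 0.05 (44.4%, against 8.11%). In 9 of the 18, s12 and s13 were the highest 2 of the 10 libraries. Gnmt, which uses S-adenosylmethionine to methylate glycine, stood at 5.26, 18.5, 47.1, 4.57 and 8.96 CPM in HSD and at 2.80 to 4.67 CPM in HFD, with log2 fold changes of 2.16 ± 0.67 with all libraries and 0.73 without s12 and s13. Hn, the phenylalanine hydroxylase, held 41.2, 106, 152, 44 and 36.3 CPM in HSD, against 27.4 to 45.6 CPM in HFD, with 159 CPM in CD s1, and its log2 fold change was 1.12 ± 0.47 with all libraries and 0.20 without s12 and s13. arg, the arginase, followed the same libraries, with 37.3 and 49.4 CPM in s12 and s13 and 54.2 CPM in s1, and its log2 fold change was 1.24 ± 0.53 with all libraries and 0.40 without s12 and s13. With those 2 libraries left out the list median was 0.07, with 11 of 18 members positive. Hpd, which acts in tyrosine breakdown, stood at 28 to 63.2 CPM in HSD and 18 to 30 CPM in HFD (log2 fold change 0.77 ± 0.30, and 0.48 without s12 and s13).

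Cytochrome P450s, enzymes of hormone and toxin metabolism, were higher in HSD in 64 of 81 members tested (median 0.35), 27 higher and 2 lower at an unadjusted p under 0.05 (35.8%, against 8.11%). In 21 of those 27 s12 and s13 were the highest 2 of the 10 libraries. Cyp309a2 was among them, at 1.42, 46.2, 78.8, 2.43 and 2.55 CPM in HSD, 0.693 to 2.06 CPM in HFD and 74.0 CPM in CD s1. Its log2 fold change was 4.12 ± 1.40 with all libraries and 0.50 without s12 and s13. Cyp6d5 and Cyp6a14 differed across more of the HSD libraries. Cyp6d5 stood at 107, 175, 174, 93.8 and 80.7 CPM in HSD and at 77.1, 72.1, 69.6, 80.3 and 68.4 CPM in HFD, without overlap. Its log2 fold change was 0.78 ± 0.23 with all libraries and 0.34 without s12 and s13. Cyp6a14 averaged 18.2 ± 3.21 CPM in HSD and 12.6 ± 1.81 CPM in HFD, with log2 fold changes of 0.53 ± 0.15 and, without s12 and s13, 0.34. The P450 median without s12 and s13 was 0.14. In that setting 3 of 81 were higher and 1 lower at an unadjusted p under 0.05, against 3.66% of all genes tested. UDP-glycosyltransferases, which conjugate sugars to small molecules, had a median of 0.19 with 4 of 28 higher at that p (14.3%, against 8.11%), and glutathione S-transferases a median of 0.10 with 3 of 32 higher (9.38%). The UDP-glycosyltransferase median was 0.03 without s13 and 0.07 without s12 and s13, with 1 higher at that p in each case. In these settings 3.68% and 3.66% of all genes tested were at that p. The glutathione S-transferase median was 0.04 without s13 and 0.01 without s12 and s13.

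**Figure D3:**
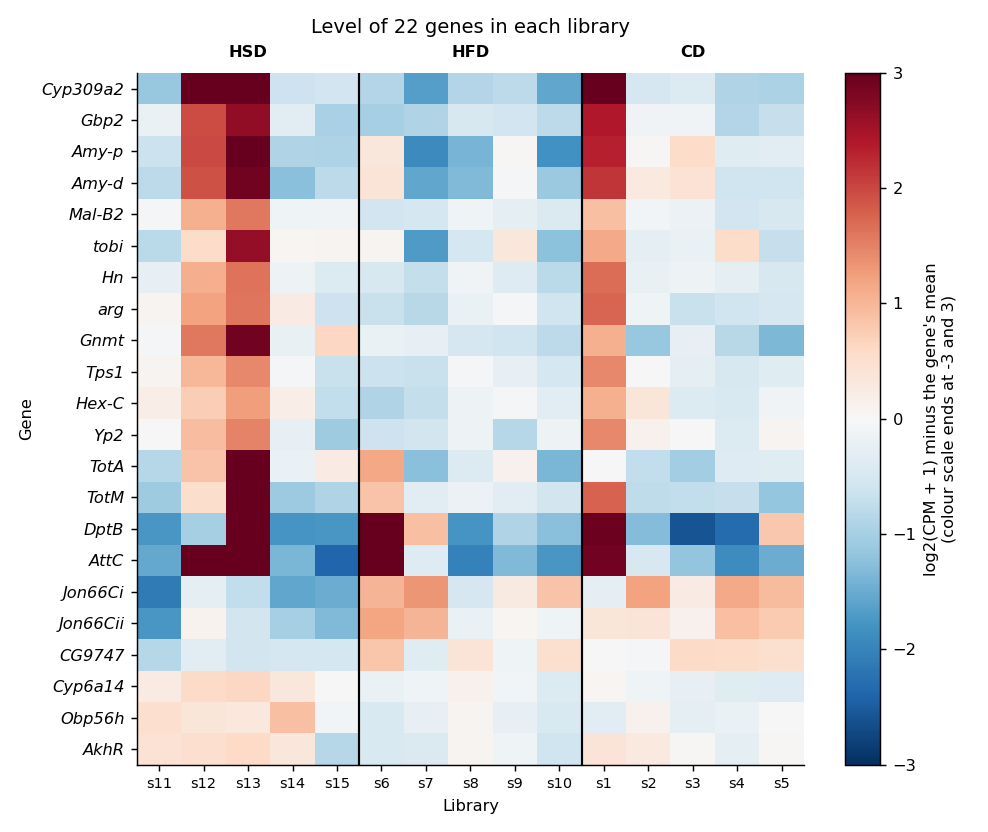
Level of 22 genes (down the page) in the HSD, HFD and CD libraries (across), as log2(CPM + 1) minus the mean of the gene over all 15 libraries, with colours ending at -3 and 3. The first 12 genes are high in HSD libraries s12 and s13 and in CD library s1, for example Amy-p at 221, 453 and 280 CPM, while Jon66Ci is low in most HSD libraries.

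Hormones and nutrient signals were higher in HSD in 24 of 30 members tested, with a median log2 fold change of 0.25 and 8 higher and 0 lower at an unadjusted p under 0.05 (26.7%, against 8.11%). Ilp6, the insulin-like peptide of the fat body, stood at 27.2, 23.3, 48.6, 21.9 and 20.3 CPM in HSD and at 11.2, 16, 18.4, 17.9 and 20.7 CPM in HFD. HSD s15 and HFD s10 crossed by less than 1 CPM, and the log2 fold change was 0.75 ± 0.27 (edgeR adjusted p = 0.609), or 0.45 without s12 and s13. Thor, the translation repressor 4E-BP, held 291, 227, 225, 240 and 189 CPM in HSD and 170, 177, 203, 173 and 185 CPM in HFD. In Thor 4 of 5 HSD libraries lay above all HFD libraries, and the log2 fold change was 0.37 ± 0.14 with all libraries and 0.39 without s12 and s13.

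AkhR, the receptor of adipokinetic hormone, stood at 46.7, 49.2, 52.3 and 43.4 CPM in HSD libraries s11 to s14 and at 18.6 CPM in s15, against 22.3 to 36.6 CPM in HFD. Here s15 lay below every HFD library. Gbp1 and Gbp2 encode growth-blocking peptides by which the fat body signals to insulin-producing cells. Gbp1 averaged 12.5 ± 4.12 CPM in HSD and 6.98 ± 1.85 CPM in HFD, and Gbp2 170 ± 176 CPM in HSD and 40.6 ± 6.42 CPM in HFD. The Gbp2 mean rests on s12 and s13, at 268 and 434 CPM, and CD s1 held 361 CPM. The log2 fold change of Gbp2 was 2.07 ± 0.75 with all libraries and 0.25 without s12 and s13, and that of Gbp1 was 0.84 ± 0.28 and 0.46. Mondo averaged 210 ± 12.5 CPM in HSD and 193 ± 6.77 CPM in HFD (log2 fold change 0.13 ± 0.05). The list median without s12 and s13 was 0.20, with 21 of 30 members positive. With 1 library left out it ran from 0.16 without HSD s14 to 0.34 without HSD s15.

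Genes of fat and sugar metabolism differed less. Fatty acid synthesis and desaturation genes had a median of 0.08 with 3 of 17 higher at an unadjusted p under 0.05 (17.6%, against 8.11%). The 3 were SREBP, the transcription factor of lipid synthesis, its escort SCAP, and the acyl-CoA synthetase Acsl. The acyl-CoA desaturase CG9747, described above, is not on this list and was lower in HSD (log2 fold change -0.88). SCAP averaged 120 ± 11.9 CPM in HSD and 102 ± 13.4 CPM in HFD. When s12 and s13 were left out, the log2 fold changes of SREBP, SCAP and Acsl were 0.04, 0.13 and 0.07, and the list had a median of -0.03 and 0 members at that p. Fatty acid oxidation genes were lower in HSD in 12 of 16 members, with a median of -0.08 and 3 lower at that p (18.8%, against 8.11%).

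Mtpalpha, the alpha subunit of the mitochondrial trifunctional protein of fat oxidation, stood at 300, 311, 314, 317 and 299 CPM in HSD and at 344, 328, 330, 327 and 332 CPM in HFD. The groups did not overlap and the CD libraries, at 330 to 354 CPM, lay above all HSD libraries, but the log2 fold change was small, -0.11 ± 0.04. Mcad, a medium-chain acyl-CoA dehydrogenase, averaged 238 ± 19.1 CPM in HSD and 272 ± 22 CPM in HFD. The oxidation list without s12 and s13 had 13 members negative, 4 of them at an unadjusted p under 0.05, with a median of -0.10. In that setting 3.66% of all genes tested were at that p.

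The medians of glycolysis (0.00), the citric acid cycle (0.01) and the nuclear genes of oxidative phosphorylation (0.00) were near the median of all genes. In glycolysis 2 of 14 members were higher and 1 lower at an unadjusted p under 0.05 (21.4%, against 8.11% of all genes tested). Without s12 and s13 the glycolysis median was -0.02, with 0 higher and 1 lower (3.66% of all genes tested). In the citric acid cycle 0 of 16 members reached that p. Of the 64 oxidative phosphorylation genes 0 reached that p, and their log2 fold changes ran from -0.17 to 0.16. With s12 and s13 left out, the medians were 0.02 for the citric acid cycle and 0.06 for oxidative phosphorylation. Hex-C, a hexokinase of the fat body, averaged 91.2 ± 44.7 CPM in HSD and 49.4 ± 12 CPM in HFD, with the highest values again in s12 and s13 and log2 fold changes of 0.89 ± 0.35 with all libraries and 0.33 without the 2. Gapdh2, a glycolytic dehydrogenase, averaged 958 ± 44.2 CPM in HSD and 1070 ± 68.6 CPM in HFD.

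Proteasome subunits were lower in HSD in 32 of 34 members tested, by small amounts. The median was -0.10, and 11 were lower and 1 higher at an unadjusted p under 0.05 (35.3%, against 8.11%). Rpt2, an ATPase of the base of the regulatory particle, stood at 175, 167, 170, 173 and 177 CPM in HSD and at 198, 203, 183, 186 and 184 CPM in HFD. These groups did not overlap, and CD held 185 to 210 CPM (log2 fold change -0.15 ± 0.05). Prosalpha6, Rpn7 and Rpn1 differed by similar amounts, with log2 fold changes of -0.15, -0.18 and -0.13. The member that was higher was Rpt4R, a paralog of Rpt4 at 1.85 CPM or less in every HSD and HFD library. Without s12 and s13, 36 members were tested and the median was again -0.10. Of these, 6 were lower and 1 higher at that p, against 3.66% of all genes tested in that setting.

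Cell cycle and DNA replication genes were lower in HSD in all 26 members tested, with a median of -0.15 and 2 at an unadjusted p under 0.05 (7.69%, against 8.11% of all genes tested). Ovarian germline genes were lower in 25 of 28 (median -0.09, 2 lower at that p, 7.14%). Chorion and vitelline membrane genes were lower in 11 of 16 (median -0.32, 0 higher and 1 lower at that p, 6.25%). The germline median was -0.03 both without s13 and without s12 and s13, with 7 of 28 positive in the second case. The eggshell median was -0.40 without s12 and s13, and ran from -0.71 without s11 to -0.05 without s8. The summed germline level ranged from 5744 to 7185 CPM in HSD and from 6697 to 7305 CPM in HFD, so the groups overlapped. Neuronal and synaptic genes were higher in all 29 members, with a median of 0.29 and 2 at that p (6.9%, against 8.11%). Those 2 were the sodium channel para and the glutamate transporter VGlut, with log2 fold changes of 0.41 ± 0.19 and 0.54 ± 0.25. The summed neuronal level was 1697 to 2676 CPM in HSD and 1416 to 2243 CPM in HFD, highest in s11 and s14. All 29 neuronal genes were also positive without s12 and s13 (median 0.39), and all 26 cell cycle genes were negative (median -0.13). With 1 library left out the neuronal median ran from 0.18 without HSD s14 to 0.37 without HFD s8, and was 0.20 without HFD s6. The cell cycle median ran from -0.26 without HSD s15 to -0.09 without HSD s11. The part of tissue proportions in these and in the other results was not tested.

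Antimicrobial peptides were higher in HSD in 11 of 12 members tested, with a median of 0.86, but 0 reached an unadjusted p under 0.05. DptB, a diptericin, stood at 0.809, 2.05, 503, 0.777 and 0.790 CPM in HSD and at 245, 10.3, 0.762, 2.23 and 1.52 CPM in HFD. A single library of each diet was high, s13 and s6. Drs, the antifungal peptide drosomycin, overlapped widely, at 567, 359, 495, 699 and 377 CPM in HSD and 444, 363, 450, 500 and 299 CPM in HFD. Def, the defensin, stood at 6.50 to 15.8 CPM in HSD and 2.92 to 9.90 CPM in HFD, and the drosomycin-like Drsl5 at 16.5 to 27.8 CPM in HSD and 8.90 to 21.5 CPM in HFD. In Drs, Def and Drsl5 s14 was the highest HSD library. AttC, an attacin, was high in s12 (115 CPM) and s13 (756 CPM) of HSD and in s6 (194 CPM) of HFD, and lay between 1.49 and 8.91 CPM in the other 7. DptB and AttC were chosen after their values were seen. The list median was -2.15 without s13, 4.11 without s6 and -4.29 without s12 and s13, where 15 members were tested.

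The 4 Turandot stress peptides that were tested all had an unadjusted p under 0.05 (100%, against 8.11% of all genes tested). Their median was 2.41, and the difference lay in s13. TotA held 3.54, 13.9, 155, 6.22 and 8.78 CPM in HSD, against 17.3, 2.47, 5.19, 8.07 and 2.22 CPM in HFD. Apart from s13 the HSD libraries lay within the HFD range, and the log2 fold change of TotA was 2.39 ± 0.92 with all libraries and 0.19 without s13. TotM held 77.7 CPM in s13 and 0.486 to 3.55 CPM in the other HSD libraries, against 1.17 to 4.67 CPM in HFD. The list median was 0.23 without s13 and -0.36 without s12 and s13. PGRP-SA, a recognition receptor of the Toll pathway, was high in s12 and s13, at 16.1 and 31.5 CPM, and at 2.92 to 5.07 CPM in the other 8 libraries of the 2 diets. PGRP-SC1b, an amidase of the gut that degrades peptidoglycan, was lower in HSD, at 6.65 ± 1.52 CPM against 11.9 ± 4.72 CPM in HFD.

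Odorant binding proteins, secreted carriers of small ligands, were higher in HSD in 22 of 27 members tested (median 0.28, 6 higher and 1 lower at an unadjusted p under 0.05, or 25.9% against 8.11% of all genes tested). Obp56h stood at 1.82, 1.59, 1.48, 2.72 and 0.878 CPM in HSD and at 0.452, 0.693, 1.11, 0.687 and 0.467 CPM in HFD. Only HSD s15 lay inside the HFD range, and the log2 fold change was 1.28 ± 0.34 with all libraries and 1.35 without s12 and s13. Obp18a did not overlap, at 13 to 30.6 CPM in HSD and 9.35 to 12.7 CPM in HFD, with log2 fold changes of 0.88 ± 0.28 with all libraries and 0.44 without s12 and s13. The 1 lower member, Obp56d, averaged 114 ± 17.6 CPM in HSD and 163 ± 48.9 CPM in HFD. Without s12 and s13 the list median was 0.36, with 2 higher and 0 lower at that p, against 3.66% of all genes tested. With 1 library left out the median ran from 0.14 without HSD s14 to 0.37 without HSD s15.

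Genes of hemocytes and melanisation had a median of 0.24 (12 of 14 positive, 3 higher and 1 lower at an unadjusted p under 0.05, or 28.6% against 8.11% of all genes tested). With s12 and s13 left out the median was 0.10, with 9 of 14 positive. In that setting 1 was higher and 1 lower at that p, against 3.66% of all genes tested. Pxn, a peroxidase that hemocytes secrete into basement membranes, averaged 47.2 ± 11.8 CPM in HSD and 31.8 ± 8.97 CPM in HFD, with log2 fold changes of 0.57 ± 0.21 with all libraries and 0.57 without s12 and s13. In the same order the log2 fold change was 0.76 ± 0.30 and 0.34 for the scavenger receptor Sr-CI, and 0.26 ± 0.11 and 0.06 for the engulfment receptor drpr. The yolk list had a median of 0.53, with 1 of 4 members higher at that p (25%, against 8.11%). That median was 0.26 without s13 and 0.01 without s12 and s13, with 2 of 4 positive in the second case. That member, the yolk protein gene Yp2, stood at 4014, 7725, 11421, 3436 and 1948 CPM in HSD and at 2252 to 3670 CPM in HFD. Again s12 and s13 were highest, with CD s1 at 11055 CPM, and the log2 fold change of Yp2 was 0.93 ± 0.43 with all libraries and 0.05 without s12 and s13. Yp1 overlapped widely, at 4082 to 9149 CPM in HSD and 5087 to 7759 CPM in HFD.

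**Figure D4:**
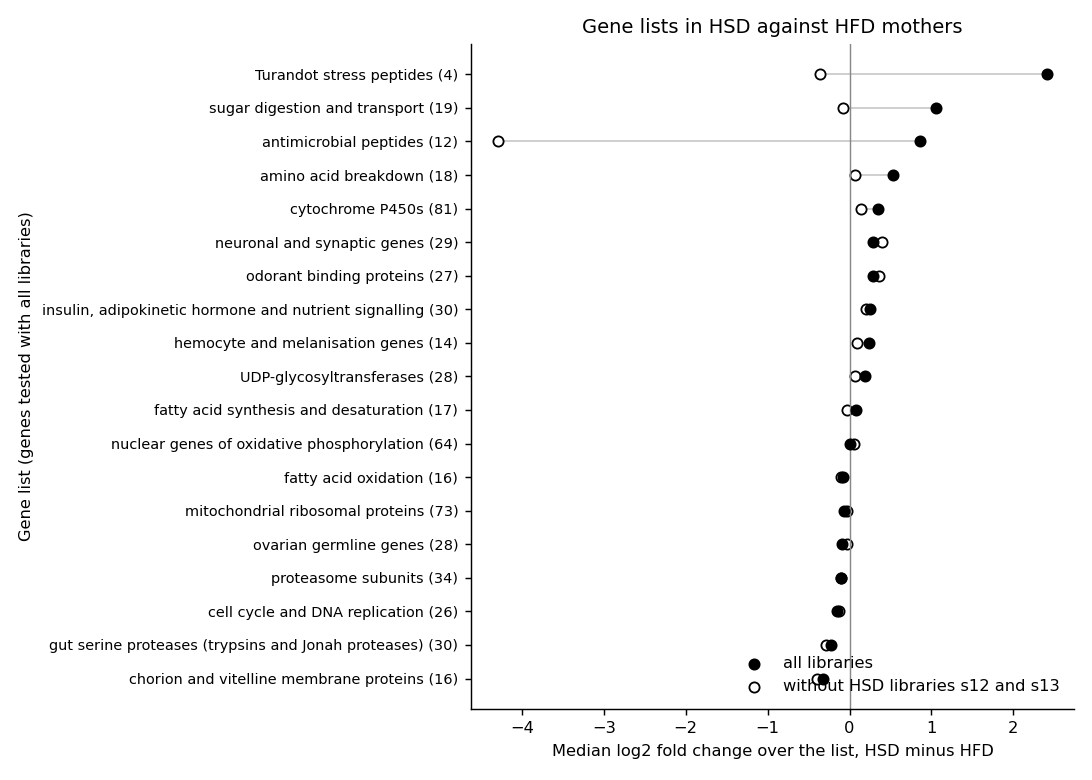
Median log2 fold change, HSD minus HFD (horizontal axis), over the tested genes of 19 lists, with all libraries (filled) and without HSD libraries s12 and s13 (open). The number of genes tested with all libraries stands in parentheses and can differ for the open points. Turandot peptides and sugar digestion genes have medians of 2.41 and 1.06 with all libraries and -0.36 and -0.08 without the 2, while neuronal genes have 0.29 and 0.39.

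The number of genes at an unadjusted p under 0.05 moved with single HSD libraries. Without s13 it was 378, and without s15 it was 1908, against 831 with all libraries. HSD s15 was the lowest HSD library in 402 of the 558 higher genes (72.0%), against 33.3% of all genes tested. Without s15 the groups did not overlap in 316 higher and 233 lower genes, and the smallest edgeR adjusted p was 0.187. Without s12 and s13, 210 genes were higher and 170 lower at an unadjusted p under 0.05, or 3.66% of the genes tested. There were 0 genes past the adjusted threshold in either case.

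**Figure D5:**
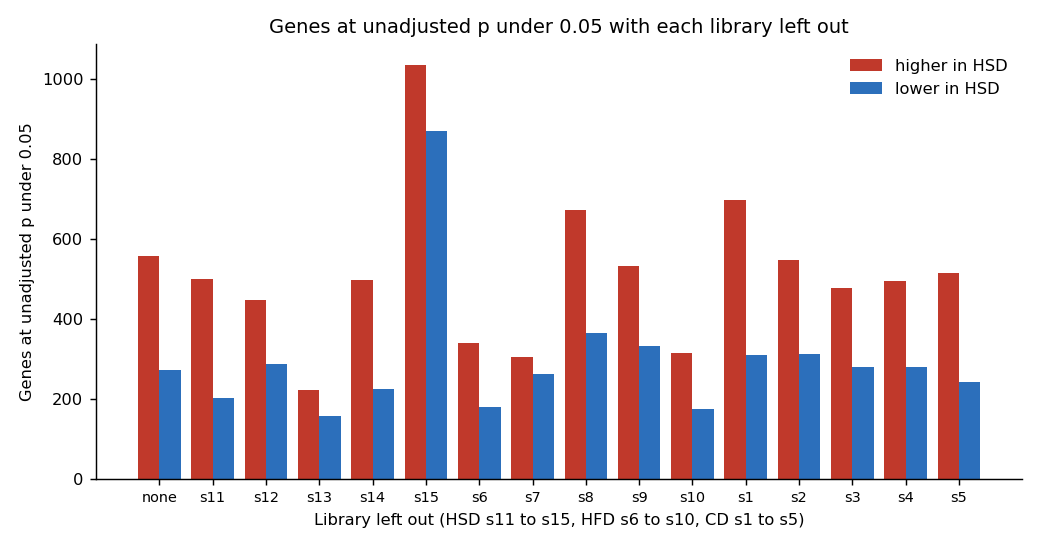
Number of genes at an unadjusted p under 0.05 in HSD against HFD mothers (vertical axis, from 0), higher (left bar) and lower (right bar) in HSD, with no library left out and with each of the 15 libraries left out in turn. The sum of the 2 bars runs from 378 without s13 to 1908 without s15.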

How the data were processed

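RNA-seq counts per gene of 15 libraries of mothers were used, as whole numbers deposited by the authors. Per the submitters' processing notes, kallisto (version not given), R 4.2.0, DESeq2 1.36.0 and build BDGP6 were used, with no role given. Column names were matched to sample labels. Symbols and coordinates came from the Ensembl BDGP6.54 annotation, and 10 identifiers had no symbol.

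From these counts, genes were filtered with filterByExpr (minimum count 10, minimum total 15) and scaled by TMM, and HSD was compared with HFD by the quasi-likelihood test of edgeR 4.0.16 (R 4.3.3) in a fit of the 3 diets, with Benjamini-Hochberg adjustment at 0.05. A prior count of 1 entered log2 CPM, and CPM were computed on totals after TMM scaling. DESeq2 1.42.0 and limma 3.58.1 gave alternatives. The fit was tested on simulated counts, drawn independently for each gene and library. These held no libraries that stand apart as s1, s12, s13 and s15 do, so they cannot show how the fit handles such libraries. No 2 libraries of a diet agreed within sampling noise (chi-square divided by its degrees of freedom at least 13.8 over 30 pairs). In DESeq2, 19 adjusted p were not given and stayed out.

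Genes were named by rule: the 10 smallest p, the 8 largest differences each way among non-overlapping genes at an unadjusted p under 0.05 and a mean of 1 CPM or more, genes called by an alternative, and up to 5 members of lists with 3 such genes or a median of 0.3 or more in size, printing fewer where space was short. AkhR, para, VGlut, DptB and AttC were named outside this rule, as were some genes under other observations, among them Tps1. The comparison and its 43 lists were chosen with earlier results of these data known, and lists were described without a test. Progeny were not analysed here. Leaving out s12 and s13 together was chosen after seeing the data.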

Additional observations from a re-analysis of the deposited data

Results flagged for a closer look

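A value was singled out where the highest or lowest of the 5 libraries of a diet lay apart from the others by Dixon's criterion. For genes the criterion was applied to log2 CPM, while the values printed here are CPM. Chance meets it in about 1 group in 20 where values are independent and normally distributed. On the log2 scale TotA and TotM in s13 did not meet it, although they held 155 CPM (next highest 13.9) and 77.7 CPM (next highest 3.55). Among 300 groups of 5 values, 29 met it, 14 of them in CD library s1. Most of the genes were named for their values in these libraries, and many vary together. The count of 29 therefore cannot be set against the rate of 1 in 20. In HSD libraries these were DptB at 503 CPM in s13 (next highest 2.05), AkhR at 18.6 CPM in s15 (next lowest 43.4) and ppk26 at 0.527 CPM in s15 (next lowest 1.12).

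In HFD libraries, s7 was lowest for Gabat (152 CPM), Cyp4ac1 (5.64 CPM), Mcad (235 CPM) and Rpt4R (0 CPM). HFD s10 was lowest for PGRP-SA (2.92 CPM), Def (2.92 CPM) and Sr-CI (1.98 CPM), and HFD s9 for osk (1157 CPM).

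CD library s1 was highest for CG9649 (63.2 CPM), CG34291 (45.8 CPM), TotM (9.77 CPM), Hn (159 CPM), arg (54.2 CPM), Gbp1 (16.4 CPM), Gbp2 (361 CPM), Cyp309a2 (74.0 CPM), Yp2 (11055 CPM), Acsl (647 CPM), Ugt49B1 (80.5 CPM), GstE1 (111 CPM) and Tps1 (2033 CPM), and had the lowest score on the first principal component, -54.8. CD s2 was lowest for sut1 (133 CPM) and PPO3 (6 CPM) and highest on the second component, at 21.7. CD s5 had the most genes with a count, 12434.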

How the results depend on the processing

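Under edgeR the count of genes past the adjusted threshold was 0 with all libraries, with median-of-ratios size factors, without the low-count filter, with HSD and HFD libraries only, with robust dispersion and with any 1 of the 15 libraries left out. DESeq2 called 1 gene, Jon66Ci, and limma-voom 0. The count at an unadjusted p under 0.05 was 831, against 2016 with limma-voom, 378 to 1908 with 1 library left out, 380 without s12 and s13 and 562 without s1, s12 and s13. The cause of these shifts was not tested. With 1 library left out, non-overlapping genes numbered 47 to 316 higher and 42 to 233 lower, where a smaller group overlaps less often by construction. No paired analysis was possible because the library numbers of the diets are unique and no label pairs libraries.

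Directions turned as follows. With limma-voom the log2 fold change was -0.19 for TotM and -1.37 for DptB. With 1 library left out it ran from -0.71 (without HSD s13) to 3.46 (without HFD s6) for TotM, from -0.46 to 5.30 for AttC and from -5.54 to 4.82 for DptB, between the same 2 settings. Without s12 and s13 it was -0.065 for PGRP-SA, -0.22 for Amy-p, -0.43 for Amy-d, -0.21 for TotA, -0.52 for TotC, -1.92 for TotM, -0.061 for TotX, -3.84 for AttC, -6.03 for DptB, -0.023 for Yp3, -0.0027 for Send1 and -0.058 for Send2. Without s1, s12 and s13 it was -0.065 for PGRP-SA, -0.22 for Amy-p, -0.43 for Amy-d, -0.22 for TotA, -0.53 for TotC, -1.92 for TotM, -0.070 for TotX, -3.84 for AttC, -6.04 for DptB, -0.021 for Yp3 and -0.055 for Send2. All other genes examined kept their direction under every alternative. With 5 libraries a diet and 0 genes called by edgeR, the data do not show that the 2 diets act alike.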

Other observations

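For the smaller gene groups the median log2 fold change, HSD minus HFD, is given per list, with no test, and the genes at an unadjusted p under 0.05 were named after their values were seen. Among circadian clock genes 2 of 9 were higher at an unadjusted p under 0.05 (22.2%, against 8.11% of all genes tested). The clock genes were higher in HSD in 8 of 9 members (median 0.20, and 0.22 without s12 and s13). They included cry, the blue light receptor, at 67.6, 60.6, 79.3, 65 and 38.5 CPM in HSD and 40.9 to 55.6 CPM in HFD, and vri, a transcriptional repressor of the clock, at 81.7 to 127 CPM in HSD and 66.8 to 102 CPM in HFD. The groups overlapped in both genes, and s15 was the lowest HSD library in each. Cuticle proteins of the Cpr family had a median of 0.18 (0.30 without s12 and s13), with 1 of 18 lower at that p (5.56%). That gene, Cpr47Ef, stood at 2.87 to 6.07 CPM in HSD, against 4.15, 12.1, 23.5, 29.2 and 3.62 CPM in HFD, so that 3 HFD libraries were high and 2 lay inside the HSD range.

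Mitochondrial ribosomal proteins were lower in HSD in 56 of 73 members (median -0.07, and -0.03 without s12 and s13). Of the 73, 1 was at that p (1.37%, against 8.11% of all genes tested). This gene, mRpL50, did not overlap, at 19.8 to 21.4 CPM in HSD and 21.7 to 27.8 CPM in HFD. Mitochondrially encoded transcripts had a median of -0.10 (0 of 13 at that p) and cytosolic ribosomal proteins 0.02 (0 of 86), and these medians were -0.07 and 0.05 without s12 and s13. Sugar storage genes had a median of 0.01, with 2 of 12 higher at that p (16.7%, against 8.11% of all genes tested). Tps1, which makes the blood sugar trehalose, stood at 795, 1500, 2054, 728 and 469 CPM in HSD. It stood at 471 to 735 CPM in HFD, and s12 and s13 were highest. The log2 fold change of Tps1 was 0.96 ± 0.42 with all libraries and 0.21 without these 2. Lipases, sterol uptake and lipoprotein genes had a median of 0.17 (0 of 16 at that p), and pentose phosphate and polyol genes 0.10 (0 of 7). Fat storage genes had a median of 0.05 (1 of 11 at that p, 9.09%) and purine and urate genes 0.18 (1 of 8, 12.5%). Ecdysone genes had a median of 0.06 (2 of 18, 11.1%, Sox14 and Cyp18a1), against 8.11% of all genes tested at that p. Without s12 and s13 these medians were -0.04 for lipases, sterol uptake and lipoproteins, -0.0046 for fat storage, -0.0093 for pentose phosphate and polyol genes, -0.06 for purine and urate genes, 0.04 for ecdysone genes and -0.05 for sugar storage genes.

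The remaining lists held 0 members at that p, except the recognition proteins and spermathecal proteases. With all libraries, medians were 0.18 for Bomanins, 0.00 for heat shock proteins, -0.04 for antioxidant enzymes, 0.07 for autophagy, 0.14 for phototransduction, and 0.05 for muscle. Without s12 and s13 they were -0.49 for Bomanins, -0.17 for heat shock proteins, -0.06 for antioxidant enzymes, 0.01 for autophagy, 0.26 for phototransduction and 0.11 for muscle. The Bomanin median was -0.25 without s13 and 0.62 without HFD s6, and the muscle median was -0.02 without HFD s6. The 2 larval fat body genes tested went opposite ways, with log2 fold changes of 2.41 for Lsp2 and -0.21 for Lsp1beta, and their median was 1.10 with all libraries, -0.04 without s12 and s13, and 0.48 to 2.53 with 1 library left out. Peptidoglycan recognition proteins and lysozymes had a median of 0.03, with 2 of 17 higher and 1 lower at that p (17.6%, against 8.11%). Their median was -0.40 without s13 and -0.63 without s12 and s13. Of the 2 spermathecal proteases Send2 was higher at that p, with 17.5 CPM in s12 and 0.439 to 4.18 CPM in the other HSD libraries, against 0.429 to 1.39 CPM in HFD. The log2 fold change of Send2 was 2.31 with all libraries and -0.06 without s12 and s13.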
